A study of Rattus norvegicus with 20 samples.

Results

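The genes described here are those of the mitochondrial respiratory chain and ATP synthase in rat liver, taken by symbol: every gene whose symbol began with Nduf, Sdha, Sdhb, Sdhc, Sdhd, Uqcr, Cox4i, Cox5, Cox6, Cox7, Cox8 or Atp5 and that had a probe set with exactly 1 symbol in the array annotation. That gave 90 genes, measured by 101 probe sets, out of 14217 genes and 31042 probe sets, and the brightest probe set over the 20 arrays stands for each gene. The animals were male Harlan Sprague Dawley rats. Isodecyl diphenyl phosphate (IDDP), a flame retardant and plasticiser of the aryl phosphate class, was given by gavage in corn oil on 4 consecutive days, and liver was taken on day 5. There were 5 controls given corn oil alone (0 mg/kg) and groups of 3 rats dosed at 66, 132, 263.6, 527.1 or 1054.2 mg/kg of body weight, with 1 Affymetrix array per rat. No genetic change is given for any group, and no age is given either.

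The respiratory chain sits in the inner mitochondrial membrane. Complex I takes electrons from NADH and complex II from succinate, ubiquinone carries them to complex III, cytochrome c carries them to complex IV, and complex IV passes them to oxygen. Complexes I, III and IV pump protons as this happens, and ATP synthase lets the protons flow back through its membrane part, Fo, to drive ATP formation in its catalytic head, F1. Hepatocytes are rich in mitochondria and use this ATP for urea, glucose and bile formation.

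The symbol rule took in more than subunits. By their known roles, 70 of the 90 genes encode subunits of the complexes: 6 of the catalytic core of complex I, 28 accessory subunits of complex I, 4 of complex II, 7 of complex III, 10 of complex IV, 5 of F1 and 10 of the stalk and Fo. The other 20 are 6 assembly factors of complex I (Ndufaf genes), 4 assembly factors of complex II (Sdhaf1 to Sdhaf4), 8 tissue isoforms and relatives of complex IV subunits, the ATP synthase inhibitor Atp5if1 and the pseudogene Cox6c-ps1. Of the 8 tissue isoforms and relatives, 7 read dimmer than the median probe set of the array (log2 6.37): Cox4i2, Cox6a2, Cox6b2, Cox7a1, Cox7b2, Cox8b and Ndufa4l2. Cox6a2, Cox7a1 and Cox8b are heart and muscle forms, and all 5 measured muscle markers were also dimmer than that median. The liver label held, since 7 of 7 measured hepatocyte markers were brighter than it, with means from 9.67 to 15.3.

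Promoters of the chain's nuclear genes are known for sites of the factors NRF1 and GABPA (NRF2), which couple them to mitochondrial biogenesis. RefSeq (GRCr8) gave a promoter for 82 of the 90 genes, and the 250 bases before each gene's start were searched on both strands. The NRF1 letters GCGCANGCGC were in 13 of 82 (15.9%), against 4.17% of all 27457 promoters. The GABPA letters CCGGAAG were in 24 (29.3%), against 7.74%. The YY1 letters AAGATGGC were in 2 (2.44%, against 1.69%) and the ESRRA letters TCAAGGTCA in 1 (1.22%, against 0.368%). The motifs do not contain one another, and a match is a description of the letters only. These letters lay 15 bases before the start in Ndufaf5 and 26 in Ndufs6, and Sdha held a further match at 89 bases. Windows around the NRF1 letters (in capitals) are shown as examples for 5 genes, subunits of 4 different complexes and 1 assembly factor, not chosen for the smallest distance. They run 5′ to 3′ on the gene's strand, and the first capital lies 39 bases before the start in Ndufv3 (complex I), 46 in Sdha (complex II), 64 in Uqcrc1 (complex III), 76 in Atp5me (ATP synthase Fo) and 18 in Sdhaf3 (complex II assembly).
Ndufv3: cagaatgcgcGCGCAAGCGCttggccccac
Sdha: ggagcgtgttGCGCAGGCGCagagccttcc
Uqcrc1: cttccttacaGCGCCTGCGCctcatactcc
Atp5me: ttgcgctacgGCGCATGCGCtttcctggct
Sdhaf3: ccgaccttctGCGCAGGCGCggctggtc
The whole 250 bases are shown for Atp5if1, the gene called at single doses, and Ndufv3, whose probe sets disagreed. That before Atp5if1, chr5:150026678-150026927 on the minus strand, held none of the 4 motifs, and that before Ndufv3, chr20:9613536-9613785 on the plus strand, held the NRF1 letters (capitals) once.
Atp5if1: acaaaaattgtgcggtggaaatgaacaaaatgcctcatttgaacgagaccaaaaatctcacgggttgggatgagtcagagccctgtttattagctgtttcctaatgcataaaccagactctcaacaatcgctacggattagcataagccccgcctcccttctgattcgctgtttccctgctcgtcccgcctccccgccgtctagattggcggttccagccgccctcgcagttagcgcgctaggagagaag
Ndufv3: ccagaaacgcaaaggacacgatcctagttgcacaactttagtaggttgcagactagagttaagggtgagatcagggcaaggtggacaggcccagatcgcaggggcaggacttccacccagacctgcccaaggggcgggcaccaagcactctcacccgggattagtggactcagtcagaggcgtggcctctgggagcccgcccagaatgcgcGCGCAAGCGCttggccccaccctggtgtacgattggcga

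Most RNAs of the chain stayed close to their control levels at every dose. Changes are log2 differences between a dose's mean and the control mean from 1 limma fit over all probe sets, and a gene was called changed when its p, adjusted by Benjamini and Hochberg over all 31042 probe sets, was under 0.05. The median change of the 90 genes was 0.04, 0.05, -0.02, -0.02 and -0.03 from 66 to 1054.2 mg/kg, against -0.00, -0.02, 0.01, -0.01 and -0.01 over all probe sets. The spread between rats of the same dose was small for these genes, with a median residual SD of 0.104 (0.0472 to 0.382) against 0.160 over all probe sets. In every rat the median of the 90 genes lay within 0.09 of the control mean on the log2 scale. The 5 controls ran from -0.03 to 0.02, and the 3 rats at 1054.2 mg/kg read -0.08, -0.04 and 0.03. The lowest rats, at -0.08 each, were replicate 1 at 527.1 mg/kg and replicate 1 at 1054.2 mg/kg, and without the first of these the median change at 527.1 mg/kg was 0.03.

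At 66, 132 and 263.6 mg/kg limma called 0 of the 90 genes, where 0.00644%, 0.0677% and 0.428% of all probe sets were called. At an unadjusted p under 0.05 there were 1, 15 and 5 genes (1.11%, 16.7% and 5.56%), where all probe sets gave 3.24%, 14.9% and 11.9%. Among all 14217 genes, each by its brightest probe set, 535, 2453 and 2044 passed it. Each is a larger share than that of the 90. At 527.1 and 1054.2 mg/kg 1 gene was called, the inhibitor Atp5if1, which was higher, where 1.68% and 3.30% of all probe sets were called (at 1054.2 mg/kg, 1.86% higher and 1.44% lower). At 1054.2 mg/kg 9 genes had an unadjusted p under 0.05 (5 higher, 4 lower), a share of 10.0%, against 15.1% of all probe sets. A trend over the ranks of the doses (0 to 5) called 2 genes, Atp5if1 higher and the complex I subunit Ndufb1 lower, where 5.05% of all probe sets were called. Of all 14217 genes, each by its brightest probe set, 369 were called at 527.1 mg/kg, 687 at 1054.2 mg/kg and 1078 in the trend. Unadjusted, 6 genes had a rising and 8 a falling trend, which is 6.67% and 8.89%, against 9.13% and 7.58% of all probe sets. Among all 14217 genes 1780 had such a rising and 1336 such a falling trend, both larger shares than those of the 90. The F test over the 6 dose groups called 0 genes, where 1.60% of all probe sets were called, and 4 genes (4.44%) had an unadjusted p under 0.05, against 12.9% of all probe sets.

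The intervals give the size of change that the arrays leave possible. At 1054.2 mg/kg the 95% interval of the change lay within 1.5-fold either way (0.58 on the log2 scale) for 88 of the 90 genes and for 86.2% of all probe sets. The 2 exceptions were Atp5if1 (0.25 to 0.74) and Sdhaf3 (0.15 to 0.68). All 70 subunits lay within it at 527.1 and at 1054.2 mg/kg, and their changes at 1054.2 mg/kg ran from -0.28 to 0.22.

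**Figure D1:**
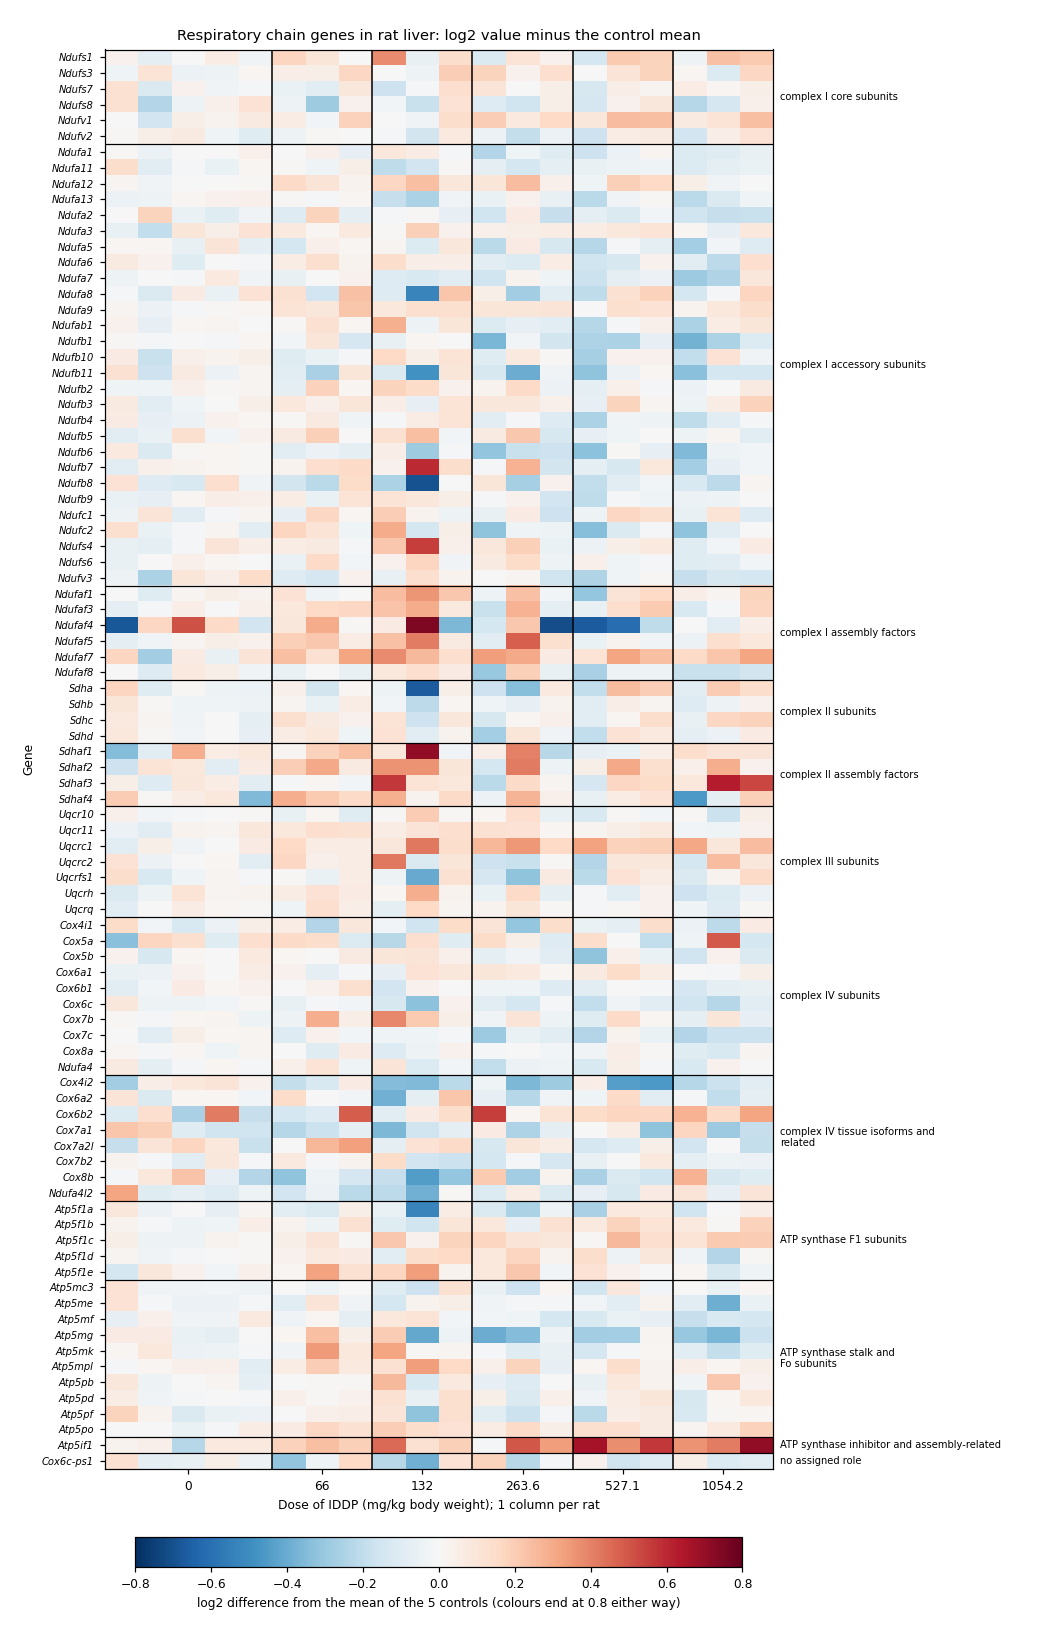
Log2 value of each of the 90 genes minus the mean of the 5 controls, with genes in rows ordered by role and 1 column per rat ordered by dose; blue is lower and red higher than the control mean. Most cells are pale, the Atp5if1 row turns red at 527.1 and 1054.2 mg/kg, and the second rat at 132 mg/kg stands out in Ndufaf4, Sdhaf1, Ndufb7, Ndufb8 and Sdha.

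Atp5if1 encodes IF1, a small protein that binds F1 and stops ATP synthase from running backwards and consuming ATP when the proton gradient collapses. Its gene lies at chr5:150022960-150026677 on GRCr8. The 5 controls read 9.69, 9.69, 9.43, 9.74 and 9.73 on the log2 scale. The rats at 66 mg/kg read 9.84, 9.89 and 9.85, those at 132 mg/kg 10.11, 9.78 and 9.85, and those at 263.6 mg/kg 9.64, 10.15 and 9.99. The rats at 527.1 mg/kg read 10.32, 10.03 and 10.22, and those at 1054.2 mg/kg 10.02, 10.07 and 10.36. Every rat at 66, 132, 527.1 and 1054.2 mg/kg was above every control, and 1 rat at 263.6 mg/kg was not.

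The change of Atp5if1 was 0.53 ± 0.12 (SE) at 527.1 mg/kg, or 1.45-fold (limma, adjusted p 0.0234), and 0.49 ± 0.12 at 1054.2 mg/kg, or 1.41-fold (adjusted p 0.0238). At the lower doses it was 0.21, 0.26 and 0.27 and was not called. The trend was 0.10 ± 0.02 per dose rank (adjusted p 0.00270) and the F test gave an adjusted p of 0.0908. Both calls at single doses were lost without control replicate 3, the control at 9.43 (adjusted p 0.0660 and 0.0621). The call at 527.1 mg/kg was also lost without its replicate 1 or 3 (0.130 and 0.0993), and that at 1054.2 mg/kg without its replicate 2 or 3 (0.0553 and 0.181), while the trend was called in each of these fits.

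The other 2 probe sets of Atp5if1 did not change in the same way. Their means were 7.32 and 6.54, and their changes at 1054.2 mg/kg were 0.11 ± 0.15 (adjusted p 0.828) and 0.22 ± 0.11 (adjusted p 0.356). At 527.1 mg/kg they read -0.32 and 0.17. With the mean of all 3 probe sets in place of the brightest, the change was 0.13 at 527.1 mg/kg (adjusted p 0.618) and 0.27 at 1054.2 mg/kg (adjusted p 0.136), and the trend had an adjusted p of 0.0665.

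**Figure D2:**
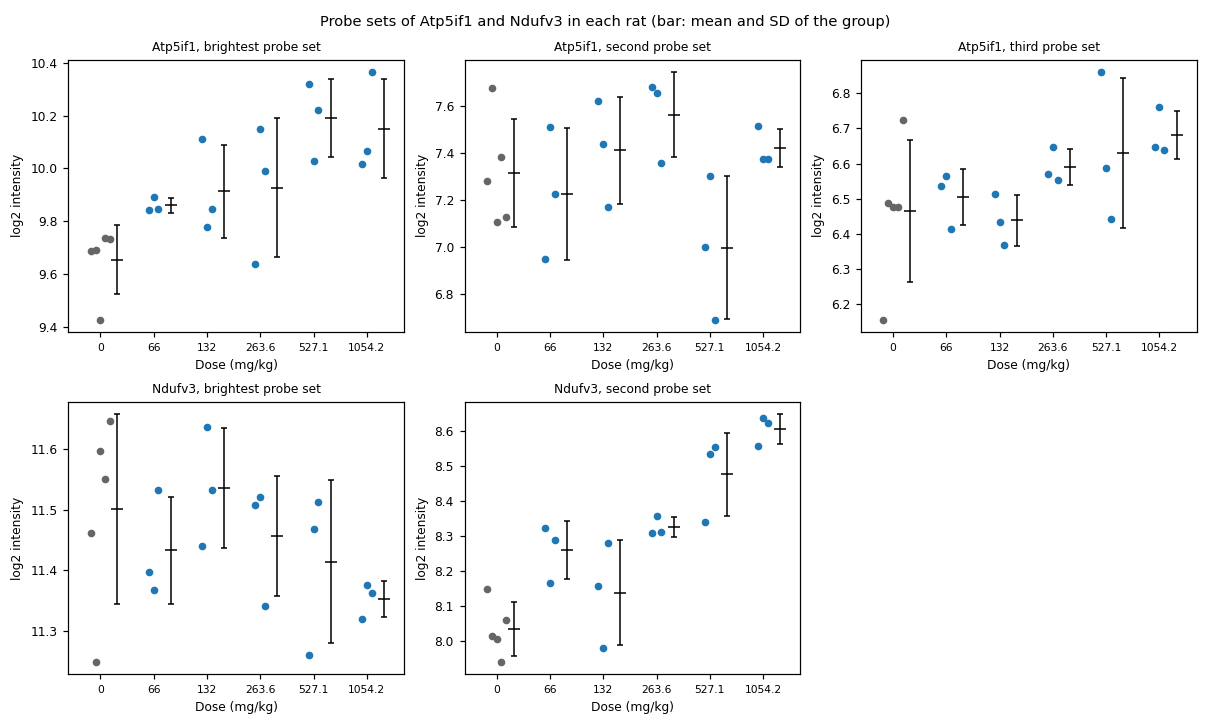
Log2 intensity of each probe set of Atp5if1 (top) and Ndufv3 (bottom) against dose in mg/kg, 1 point per rat (controls grey, treated blue), with the group mean and SD as bars; each panel has its own scale. The brightest probe set of Atp5if1 and the second of Ndufv3 are higher at 527.1 and 1054.2 mg/kg, where all 3 rats lie above the 5 controls, while the brightest of Ndufv3 is not.

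Complex I was represented by 6 core and 28 accessory subunits. The core subunits hold the flavin and iron-sulphur centres that carry electrons from NADH to ubiquinone. Their median change at 1054.2 mg/kg was 0.03, with 5 of 6 above 0 and 0 called. The most changed, Ndufv1, which binds NADH, read 11.15 ± 0.09 (SD, n = 5) in controls and 11.29 ± 0.09 (n = 3) at 1054.2 mg/kg, a change of 0.14 ± 0.08 (limma, adjusted p 0.460), with a trend of adjusted p 0.155. The accessory subunits, which surround and stabilise the core, had a median change of -0.08 at 1054.2 mg/kg, with 22 of 28 below 0 and 0 called. Without replicate 1 at that dose it was -0.04, with 19 of 28 below 0. Centring the array medians gave -0.06 with 22 of 28 below 0.

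Ndufb1, a small accessory subunit of the membrane arm, was the subunit with a called trend. Controls read 12.03, 12.01, 12.02, 12.01 and 12.04. The rats at 66 mg/kg read 12.001, 12.12 and 11.89, and those at 132 mg/kg 11.96, 12.04 and 12.02. Those at 263.6 mg/kg read 11.66, 12.002 and 11.88, those at 527.1 mg/kg 11.78, 11.77 and 11.96, and those at 1054.2 mg/kg 11.65, 11.77 and 11.92. All 9 rats of the 3 highest doses were below every control, and the lower doses overlapped the controls. The trend was -0.05 ± 0.01 per dose rank (limma, adjusted p 0.0324), and the change at 1054.2 mg/kg was -0.25 ± 0.09 (adjusted p 0.156). The trend's call was lost with array medians centred (adjusted p 0.0759) and without any of control replicates 1, 3, 4 or 5, replicates 1 or 2 at 527.1 mg/kg or replicates 1 or 2 at 1054.2 mg/kg (0.0511 to 0.0849).

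Ndufv3 is an accessory subunit of the NADH-binding module. Its brightest probe set (mean 11.5), which stands for the gene in the counts above, read 11.46, 11.25, 11.60, 11.55 and 11.65 in controls and 11.32, 11.38 and 11.36 at 1054.2 mg/kg, which lies inside the control range. Its change was -0.15 ± 0.09 (adjusted p 0.515). A second, dimmer probe set of the gene (mean 8.28), singled out after its values were seen, read 8.15, 8.01, 8.003, 7.94 and 8.06 in controls. It read 8.34, 8.53 and 8.55 at 527.1 mg/kg and 8.56, 8.64 and 8.62 at 1054.2 mg/kg, above every control. Its changes from 66 to 1054.2 mg/kg were 0.23, 0.11, 0.29, 0.44 and 0.57, called at 527.1 mg/kg (adjusted p 0.00760) and at 1054.2 mg/kg (1.49-fold, adjusted p 4.06e-04), with a trend of 0.11 ± 0.01 (adjusted p 1.09e-04). The call at 527.1 mg/kg was lost without replicate 3 of that dose (adjusted p 0.0619). Of all 101 probe sets, 2 were called at 527.1 mg/kg, 2 at 1054.2 mg/kg, 3 in the trend and 1 in the F test, and the second Ndufv3 probe set was among them each time.

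The 6 assembly factors of complex I build or modify the complex without staying in it. At 1054.2 mg/kg 0 of 6 were called, with a median change of 0.03 (-0.01 after quantile normalization was applied again). The largest change was that of Ndufaf7, a mitochondrial methyltransferase, which read 7.56 ± 0.18 in controls and 7.79 ± 0.08 at 1054.2 mg/kg. Its changes were 0.23, 0.26, 0.23, 0.22 and 0.23 in order of rising dose, each at an unadjusted p under 0.05 and none called (adjusted p 0.288 at 1054.2 mg/kg). All of these changes share the same controls, of which replicate 2 read 7.28 and the others 7.50 to 7.73. Without that control the changes were 0.16, 0.19, 0.16, 0.15 and 0.16. A second, dimmer probe set of Ndufaf7 (mean 6.503) read 0.19, 0.19, -0.00, -0.05 and 0.11, so the probe sets differed at 263.6 and 527.1 mg/kg. Ndufaf4 varied most of the 90 genes between rats of a dose (residual SD 0.382), with controls at 9.08, 9.93, 10.27, 9.92 and 9.61. At 527.1 mg/kg its change was -0.49 with an interval of -0.999 to 0.01, so that its response was not resolved.

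Complex II, the succinate dehydrogenase, has 4 subunits, all nuclear. Their changes at 1054.2 mg/kg were 0.08 for the flavoprotein Sdha, -0.04 for the iron-sulphur protein Sdhb, 0.09 for the membrane anchor Sdhc (adjusted p 0.695) and -0.02 for the other anchor, Sdhd. The 4 assembly factors of complex II, which insert its flavin and iron-sulphur centres, had a median change of 0.12 and 0 calls at that dose. Sdhaf3, which aids the maturation of Sdhb, read 8.80, 8.65, 8.84, 8.82 and 8.66 in controls and 8.84, 9.38 and 9.29 at 1054.2 mg/kg. Replicates 2 and 3 lay above every control, and replicate 1 lay inside their range. The change was 0.41 ± 0.13 (limma, adjusted p 0.0895). It was called in 1 of the 20 fits that left out 1 rat, that without replicate 1 at that dose (0.58, adjusted p 0.0164), and its adjusted p reached 0.402 in the others. The change was 0.06 at 527.1 mg/kg, and the F test had an unadjusted p of 0.0296.

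Complex III passes electrons from ubiquinol to cytochrome c. Of its 7 measured subunits 0 were called, and the most changed was Uqcrc1, a core protein related to the mitochondrial processing peptidase. Controls read 12.24, 12.37, 12.30, 12.33 and 12.39. The rats at 66 mg/kg read 12.48, 12.39 and 12.39, those at 132 mg/kg 12.42, 12.75 and 12.47, and those at 263.6 mg/kg 12.59, 12.67 and 12.49. The rats at 527.1 mg/kg read 12.65, 12.51 and 12.52, and those at 1054.2 mg/kg 12.64, 12.42 and 12.58. All 12 rats from 132 mg/kg upwards were above every control. The change was 0.22, 0.26, 0.23 and 0.22 at these 4 doses (limma, adjusted p from 0.210 to 0.257), and the trend missed the threshold (0.05 ± 0.01, adjusted p 0.0616). It passed in 2 of the 20 fits that left out 1 rat, as without replicate 2 at 132 mg/kg (adjusted p 0.0232), and its adjusted p reached 0.141 in the others. It passed in 5 of 9 other alternatives, as when dim probe sets were left out (0.0382), and there its adjusted p reached 0.192. The partner core protein of Uqcrc1, Uqcrc2, read 0.07 and the Rieske iron-sulphur protein Uqcrfs1 0.02 at 1054.2 mg/kg.

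Complex IV, cytochrome c oxidase, has a catalytic centre made from mitochondrial genes and nuclear subunits around it. Of 10 nuclear subunits 0 were called at 1054.2 mg/kg, where the median change was -0.06 and 8 of 10 were below 0 (-0.03 and 6 of 10 after quantile normalization was applied again). Cox7c, a small membrane subunit, changed most. Controls read 12.42, 12.34, 12.47, 12.44 and 12.44, and the rats at 1054.2 mg/kg 12.19, 12.25 and 12.25, below every control. At 527.1 mg/kg the rats read 12.19, 12.45 and 12.37 and overlapped the controls. The change at 1054.2 mg/kg was -0.19 ± 0.08 (limma, adjusted p 0.231) and the trend had an adjusted p of 0.130. Among the tissue isoforms 0 were called, and the largest change, 0.25 ± 0.16 for the testis form Cox6b2 (adjusted p 0.504), came from a probe set with a mean of 4.56, near the bottom of the array's range.

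ATP synthase was represented by 5 subunits of F1 and 10 of the stalk and Fo, of which 0 were called at 1054.2 mg/kg, with medians of -0.03 and -0.02. The F1 median was 0.03 without replicate 1 at that dose and 0.01 after quantile normalization was applied again. Atp5f1c, the gamma subunit that forms the rotor shaft inside F1, read 13.05, 12.96, 12.96, 13.03 and 13.01 in controls and 13.11, 13.21 and 13.21 at 1054.2 mg/kg, above every control. Its change was 0.18 ± 0.08 (limma, adjusted p 0.260) and its trend had an adjusted p of 0.126. This trend passed in 0 of the 20 fits that left out 1 rat. It passed in 1 of 9 other alternatives, repeated quantile normalization (0.0196), and its adjusted p reached 0.306 in the others. Atp5mg, a small Fo subunit at the contact between paired enzymes, read 12.83, 12.83, 12.71, 12.68 and 12.76 in controls and 12.46, 12.39 and 12.59 at 1054.2 mg/kg, below every control. Its change was -0.28 ± 0.12 (adjusted p 0.254) and its trend -0.07 ± 0.02 per dose rank (adjusted p 0.0672). The trend passed in 2 of the 20 fits that left out 1 rat, as without replicate 2 at 132 mg/kg (0.0357), and its adjusted p reached 0.140 in the others. It passed in 4 of 9 other alternatives, as when dim probe sets were left out (0.0449), and there its adjusted p reached 0.105. Cox6c-ps1, a pseudogene of a complex IV subunit, read -0.05 ± 0.12 and can share signal with Cox6c.

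**Figure D3:**
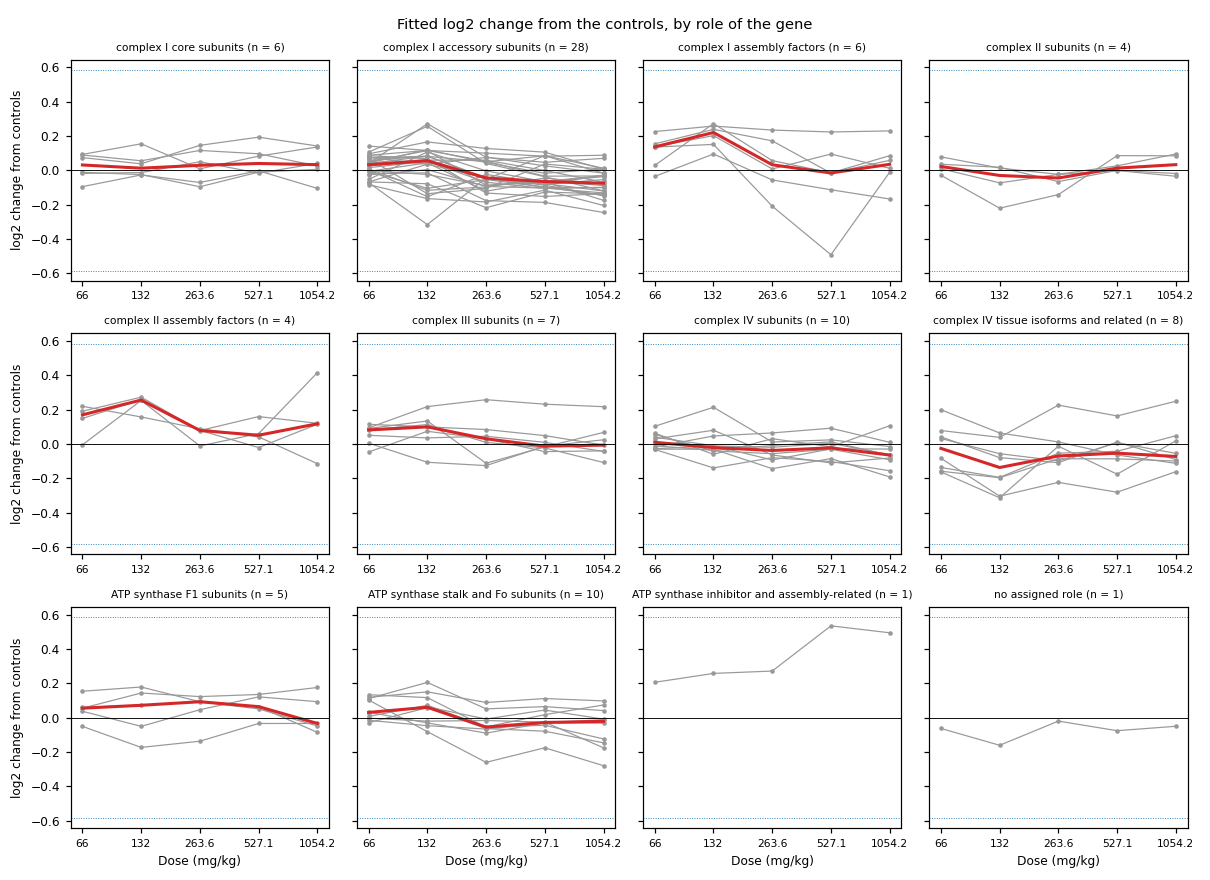
Fitted log2 change from the 5 controls at each dose in mg/kg, 1 grey line per gene and the median of the role in red, with dotted lines at 1.5-fold either way. The lines of the subunits stay inside the dotted lines, and the complex I accessory subunits have a median of 0.05 at 132 mg/kg and -0.08 at 1054.2 mg/kg.

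**Figure D4:**
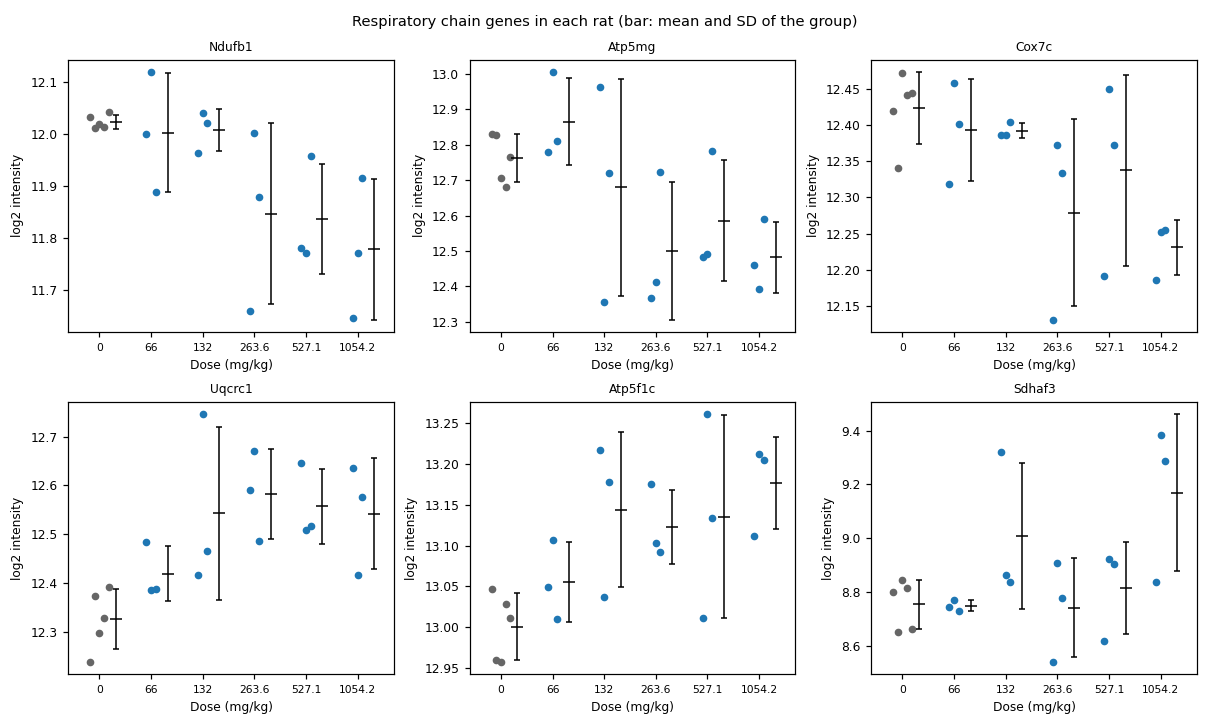
Log2 intensity in each rat against dose in mg/kg for Ndufb1, Atp5mg, Cox7c, Uqcrc1, Atp5f1c and Sdhaf3 (controls grey, treated blue), with the group mean and SD as bars; each panel has its own scale. At 1054.2 mg/kg all 3 rats lie below the controls in Ndufb1, Atp5mg and Cox7c and above them in Uqcrc1 and Atp5f1c, and 1 rat of Sdhaf3 lies among the controls. These genes were picked for their change or trend in these same rats, so the separation is no test, and none was called at 1054.2 mg/kg.

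A measure of RNA quality moved with several of these genes, and 2 rats stood apart in it. Control probe sets read the beta-actin and GAPDH RNAs at both ends, and their 3′ value minus their 5′ value, which widens as RNA is degraded or less fully copied, was 1.64 ± 0.27 (SD, n = 5) in controls, 3.25 in replicate 2 at 132 mg/kg and 2.47 in replicate 2 at 263.6 mg/kg. At 527.1 and 1054.2 mg/kg it was 1.69 ± 0.10 and 1.68 ± 0.11 (n = 3 each). Replicate 1 at 132 mg/kg (2.17) and replicate 2 at 66 mg/kg (2.04) also lay above the highest control (1.89). They stayed in every fit described below as without both rats, which left out only the rats at 3.25 and 2.47. A slope of each gene on this difference, with the dose groups in the model and chosen after the data were seen, was called for 13 of 90 genes, 14.4%, where 10.0% of all probe sets were called. Without both rats it was called for 0 of 90 in limma, where 0.396% of all probe sets were called. There 11 of the 90 had an unadjusted p under 0.05, a number for which the share of all probe sets was not counted. For none of these slope counts was the share of all genes, each by its brightest probe set, counted.

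The slope was negative for 8 genes, among them Ndufa8 (-0.39 ± 0.08, adjusted p 0.00660), Sdha (-0.39 ± 0.09, 0.00899), Ndufb8 (-0.38 ± 0.07, 0.00241) and the F1 alpha subunit Atp5f1a (-0.30 ± 0.07, 0.0123). It was positive for 5, Ndufaf4 (0.74 ± 0.13, adjusted p 0.00108), Sdhaf1 (0.46 ± 0.09, 0.00230), Ndufb7, Ndufaf5 and Ndufs4. Without both rats the SEs of these slopes were larger, and some slopes kept their size while others shrank. Ndufaf4 then had 0.94 ± 0.25, Ndufa8 -0.38 ± 0.17 and Ndufb8 -0.35 ± 0.15. Sdha had -0.25 ± 0.17, and Ndufb7 went from 0.27 ± 0.08 to -0.02 ± 0.14. In replicate 2 at 132 mg/kg Sdha read 10.90, against 11.47 to 11.73 in controls, and Sdhaf1 read 10.60, against 9.54 to 10.18. The assembly factors of complexes I and II, with medians of 0.22 and 0.26 at 132 mg/kg, read 0.15 and 0.22 without both rats. At that dose 15 of the 90 genes had an unadjusted p under 0.05 (16.7%, against 14.9% of all probe sets), and 7 did without both rats. Of all 14217 genes, each by its brightest probe set, 2453 did with all rats, a slightly larger share than that of the 90. The share of all probe sets without both rats was not counted, so whether this fall was particular to these genes cannot be said. The part of RNA quality in the changes at 132 mg/kg was not tested further. Atp5if1 was called at 527.1 and 1054.2 mg/kg with this difference as a covariate and without both rats.

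**Figure D5:**
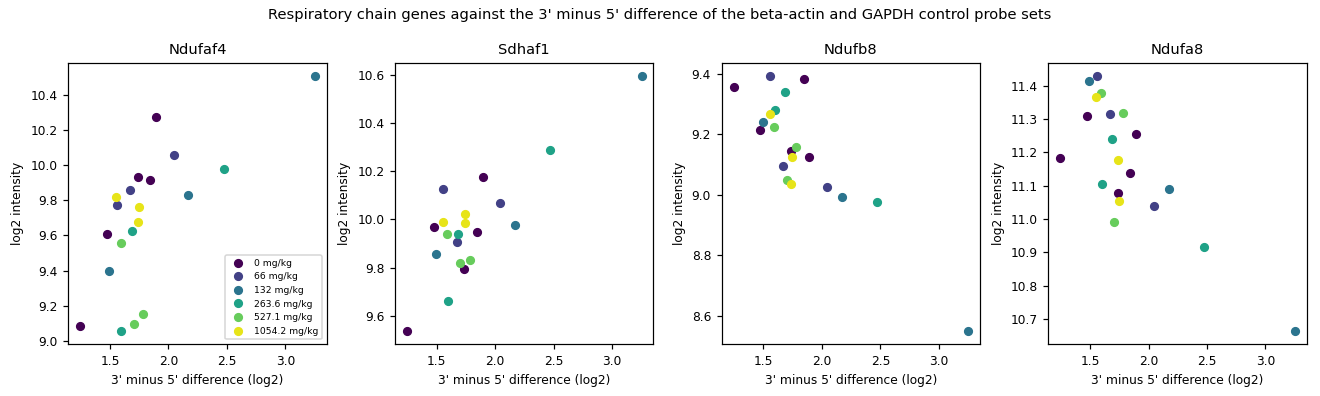
Log2 intensity of Ndufaf4, Sdhaf1, Ndufb8 and Ndufa8 against the 3′ minus 5′ difference (log2) of the control probe sets, 1 point per rat coloured by dose. The rat at 3.25, replicate 2 at 132 mg/kg, is the highest in Ndufaf4 and Sdhaf1 and the lowest in Ndufb8 and Ndufa8.

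Genes assigned to the same complex varied together between rats only loosely. After removal of the dose means, the mean pairwise correlation across the 20 arrays was 0.21 within a complex and 0.13 between complexes. It was taken over the 83 genes brighter than the median probe set. Assembly factors, the relative Cox7a2l and the inhibitor Atp5if1 were counted with their complex here. Complex I, the largest group, supplied most of the 1004 pairs within a complex, so the 0.21 is mainly its value. These are descriptions over arrays that also differ in their median level and RNA quality.

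The partners of the chain were read from lists of its wider pathway, which held 222 measured genes. Of these 6 (2.70%) were called at 1054.2 mg/kg, where 3.30% of all probe sets were called, and in the trend 11 (4.95%), where 5.05% were. The lists hold 1 probe set per gene, and of all 14217 genes read that way 687 were called at that dose and 1078 in the trend. Both are larger shares than those of the lists. Of the subunits that mitochondrial DNA encodes 2 were measured, COX1 and COX2, and 0 were called. COX1, the catalytic subunit of complex IV, read -0.01 ± 0.12 at 1054.2 mg/kg (limma, adjusted p 0.984). At that dose 0 of 8 genes of cytochrome c and electron entry, 0 of 12 of ubiquinone synthesis, 0 of 19 of biogenesis and mitochondrial DNA upkeep, 0 of 73 mitochondrial ribosomal proteins, 0 of 15 carriers and porins and 0 of 8 antioxidant genes were called. These counts are to be read against the same 3.30% of probe sets and 687 of 14217 genes. The most changed of each list were Sqor (0.51), Coq10b (-0.47), Pprc1 (-0.59), Mrpl49 (0.36), Slc25a1 (-0.43) and Gsr (1.06 ± 0.33, adjusted p 0.0893). At this dose Gsr was called in 2 of the 20 fits that left out 1 rat, and its adjusted p reached 0.374 in the others. It was called in 3 of 10 other alternatives, and there its adjusted p reached 0.154. Mrpl49 was called in 3 and Slc25a1 in 1 of those 10. Coq10b read -0.22 without replicate 1 at 1054.2 mg/kg and Pprc1 -0.36 without control replicate 3. Median changes of these lists ran from -0.06 for electron entry to 0.15 for the antioxidants.

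Of 34 assembly factors outside the symbol rule 1 (2.94%) was called at 1054.2 mg/kg, Acad9, which builds complex I and also oxidises fatty acids. It read 10.32 ± 0.02 in controls and 10.80 ± 0.29 at 1054.2 mg/kg, with rats at 10.47, 10.91 and 11.01, a change of 0.47 ± 0.11 (adjusted p 0.0167). Of 18 genes of the citric acid cycle and pyruvate use 1 (5.56%) was called, pyruvate carboxylase (Pc), which feeds oxaloacetate to the cycle and to glucose formation. It fell by 0.58 on the log2 scale (SE 0.11, adjusted p 0.00355), with controls between 10.92 and 11.17 and the rats at 1054.2 mg/kg at 10.32, 10.62 and 10.33.

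Of 33 import, chaperone and protease genes 3 were higher and 1 lower at 1054.2 mg/kg, 12.1% together. Of all probe sets 1.86% were higher and 1.44% lower. Of all 14217 genes, each by its brightest probe set, 383 were higher and 304 lower, which are larger shares than those of the probe sets. The matrix protease Lonp1 rose by 0.32 ± 0.07 (adjusted p 0.0177), the import subunit Timm21 by 0.54 ± 0.14 (0.0329) and the processing peptidase subunit Pmpca by 0.29 ± 0.07 (0.0236), while the protease chaperone Clpx fell by 0.57 (SE 0.11, adjusted p 0.00535). Pmpca was named after its values were seen. Clpx read 11.62, 11.70, 11.71, 11.76 and 11.52 in controls and 11.17, 11.26 and 10.86 at 1054.2 mg/kg, below every control. Leaving out 1 rat ended the call of Clpx (replicate 3 at 1054.2 mg/kg, adjusted p 0.0652), of Lonp1 (replicates 1 or 3, 0.0649 and 0.110) and of Acad9 (replicates 2 or 3, 0.101 and 0.148) but not of Pc. Timm21 lost its call without control replicate 1, 4 or 5 or replicate 2 or 3 at 1054.2 mg/kg (0.0627 to 0.178), and Pmpca without control replicate 1 or 4 or any replicate at that dose (0.0568 to 0.108). Fitted on the controls and that dose alone, Lonp1 and Pmpca were not called (0.0571 and 0.0672), and neither was Timm21 with array medians centred (0.0511) or Pmpca after quantile normalization was applied again (0.0698).

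Liver holds other cells than hepatocytes, and in bulk RNA fewer cells of a type and less RNA per cell cannot be told apart. At 1054.2 mg/kg 0 of 7 hepatocyte markers were called, and the mean of their levels was 13.60 to 13.63 in the treated rats against 13.65 to 13.80 in controls. Markers of Kupffer cells and macrophages were lower for 5 of 7 (means of 9.52 to 9.61 against 9.90 to 10.4 in controls), of endothelial cells for 2 of 6 (8.55 to 8.83 against 8.81 to 9.12) and of stellate cells and fibroblasts for 4 of 7 (7.78 to 8.003 against 8.09 to 8.47). Of cholangiocyte markers 1 of 4 was higher (6.91 to 7.67 against 6.70 to 7.16), and 0 of 2 erythroid markers were called (8.94 to 10.2 against 9.86 to 10.9). Their part in the values of the chain genes was not tested.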

How the data were processed

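The authors deposited log2 intensities per probe set, normalized with RMA (per the submitters' processing notes, which give no version). Array medians lay between 6.31 and 6.41, and the number of arrays limits the precision. From 31042 probe sets (57 control probe sets left out), limma 3.58.1 in R 4.3.3 fitted 1 mean per dose group to all 20 arrays, with empirical Bayes moderation (degrees of freedom: 14 residual, 5.75 prior). Two-sided p-values were adjusted by Benjamini and Hochberg over all probe sets. Symbols came from the array annotation. Of the tested probe sets 20826 carried 1 symbol, 436 several and 9780 are unnamed here, and 7 that carried a chain gene among several symbols were not used. All 90 genes matched RefSeq (GRCr8) by Entrez identifier. The scripts were tested on simulated data. Errors beside group means are SDs between the rats of the group, and errors beside changes are SEs. The p-values set a change against the spread between rats of the same dose.

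Genes and lists were chosen with earlier results of these data known. Named were genes past the threshold, the most changed of each role at 1054.2 mg/kg, the 3 of smallest trend p in each direction, and, per pathway list, up to 3 of the most changed past the threshold or else the most changed. Alternatives were a filter on dim probe sets, 1 probe set per gene, the mean of a gene's probe sets, centred medians, repeated quantile normalization, only the groups compared, another variance prior, the replicate number as a block, the 3' minus 5' difference, the dose in mg/kg, and leaving out each rat. The labels do not say whether rats of the same replicate number were paired, and the main fit did not pair them.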

Additional observations from a re-analysis of the deposited data

Results flagged for a closer look

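Of the 24 sets of 5 control values checked for the genes described, 1 held a value far from the others: Atp5if1 in control replicate 3, at 9.43 on the log2 scale. The next control read 9.69 and the highest 9.74, so the gap was 0.84 of the range, above the limit of 0.71 for 5 values. Chance sets apart about 1 in 20 such groups. The calls of Atp5if1 at 527.1 and 1054.2 mg/kg were lost without this rat (0.48, adjusted p 0.0660, and 0.44, adjusted p 0.0621), and the trend was kept.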

How the results depend on the processing

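No called value changed direction. The median at 527.1 mg/kg turned from -0.02 to 0.03 without replicate 1 of that dose. Of 359 counts and medians under the alternatives, 328 stayed within 1.5 times (counts) or 1 SD between rats (medians) and 31 moved. Of 3192 values for single genes, 3037 kept their side of the threshold, 108 lost a call and 47 gained one, and 52 values that were never called changed sign. The trend count of 2 became 4 (with Uqcrc1 and Atp5mg) with dim probe sets left out, 1 probe set per gene, the 3' minus 5' difference as a covariate, or without both rats of high difference, and 1 with the mean of a gene's probe sets, centred medians, the replicate block or dose in mg/kg. The trend count became 3 with repeated quantile normalization (with Atp5f1c) and with the other variance prior (with Uqcrc1). The counts at 527.1 and 1054.2 mg/kg became 0 with the mean of a gene's probe sets and with the replicate block. Under the block Atp5if1 read 0.59 and 0.55 (adjusted p 0.0720 and 0.0694) and the Ndufb1 trend had an adjusted p of 0.0836. The second Ndufv3 probe set lost its call at 527.1 mg/kg (0.0667), and Acad9, Lonp1, Pmpca and Timm21 lost theirs at 1054.2 mg/kg (0.0767 to 0.158). Same-numbered rats had correlations of -0.35 to 0.47 (median 0.08), over 0.1 in 13 of 30 pairs, and rats of different number had a median of -0.03. The labels do not say what the numbers stand for, and these correlations cannot tell whether same-numbered rats shared a batch. The median at 132 mg/kg was 0.0927 with centred medians. Centring shifted the median of all probe sets by at most 0.04. Leaving out each rat gave 0 to 2 genes at 132 mg/kg (Ndufb8 lower and Ndufs4 higher without replicate 3 of that dose) with a median of 0.0261 to 0.0545, 0 to 1 at 527.1 mg/kg, 0 to 2 at 1054.2 mg/kg, 1 to 4 in the trend, and 0 to 1 in the F test (Atp5if1 without replicate 1 at 263.6 mg/kg, adjusted p 0.0361). The cause was not tested.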

Other observations

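Of the 222 genes of the pathway lists 11 (4.95%) were called in the dose trend, where 5.05% of all probe sets and 1078 of all 14217 genes were. Of the 11 genes 5, named after their values were seen, were called at no single dose. At 1054.2 mg/kg Idh2, which makes NADPH in the mitochondrial matrix, read 11.1 ± 0.14 (SD, n = 5) in controls and 11.3 ± 0.07 (n = 3) (limma trend, adjusted p 0.0446). The DNA polymerase Polg was higher by 0.26 ± 0.10 (SE; trend, adjusted p 0.0490) and the chaperone Trap1 by 0.19 ± 0.07 (0.0389). Prodh, which passes electrons from proline to the chain, was lower by 0.33 ± 0.13 (trend, adjusted p 0.0379), and the complex IV assembly factor Coa7 lower by 0.34 ± 0.10 (0.00496). Leaving out 1 rat at a time ended the call of Polg in 16 of 20 fits, of Idh2 in 12, of Trap1 in 11, of Prodh in 9 and of Coa7 in 0. The factors whose letters were searched for in the promoters, Nrf1, Gabpa, Yy1 and Esrra, were not called at any dose: at 1054.2 mg/kg Nrf1 read 0.04 ± 0.11, Gabpa 0.23 ± 0.24, Yy1 0.05 ± 0.11 and Esrra 0.05 ± 0.10.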
